A study of Mus musculus with 6 samples.

Results

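The calpain genes described here are Capn6, Capn1, Capn2, Capn7, Capns1, and Cast, which were 6 of the 25215 genes whose expression was deposited for single cells of mouse melanoma. They were found by symbol, and all 6 had a row and passed the filter on low values (TPM above 0 in more than 5 retained cells). Capn6 was chosen by its higher values in R499 tumors, so its levels there are a description, with no test, and the question was whether the other calpain genes followed it. All tumors were grown subcutaneously in C57BL/6 mice from 50000 injected cells and harvested on day 15. B16 tumors came from B16-F10, a mouse melanoma line, and were left untreated (2 tumors). B16PD1 tumors came from the same line in mice given 200 μg of anti-PD1, an antibody that blocks the checkpoint receptor PD1, on days 5, 8, and 11 (2 tumors). R499 tumors were untreated and came from a line derived from a B16 tumor that had relapsed after radiation and anti-CTLA4 (2 tumors), so that R499 stands for 1 such line, and B16PD1 differs from it in both line and treatment. Each mouse was injected on both flanks, and whether the flanks were pooled is not given in the sources used here.

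Calpains are calcium-dependent cysteine proteases of the cytoplasm that cut their substrates at few sites, among them proteins of focal adhesions and of the membrane skeleton, and they are known for their part in cell spreading and migration. The classical calpains are pairs of a large catalytic subunit, made from Capn1 or Capn2, and the common small subunit, made from Capns1, and calpastatin, made from Cast, is their inhibitor. Capn6 is an unusual member that is known to bind microtubules and the guanine nucleotide exchange factor GEF-H1 and is thought to lack protease activity, whereas Capn7 is a more distant, non-classical member that binds proteins of membrane sorting.

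The coding sequence around the catalytic cysteine is shown because it sets Capn6 apart from the 3 catalytic members. Each line gives 33 bases of the coding strand, 5′ to 3′, from the GENCODE M21 transcripts on GRCm38, and the capitals mark the codon that aligned with the catalytic cysteine of Capn2.
Capn6: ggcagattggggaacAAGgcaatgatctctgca
Capn1: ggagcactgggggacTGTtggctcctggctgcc
Capn2: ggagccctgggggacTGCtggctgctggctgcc
Capn7: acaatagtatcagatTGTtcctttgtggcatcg
In Capn6 the codon encodes lysine (C105K, with the residue of Capn2 first, counted from its first methionine), which is residue 81 of Capn6. The Capn6 window lies in exon 3 at chrX:143810884-143810916 on the minus strand, and that of Capn7 in exon 8 at chr14:31354095-31354127 on the plus strand. The windows of Capn1 (chr19:6013685-6014005, minus strand) and Capn2 (chr1:182492848-182512216, minus strand) each cross an exon junction, so that their coordinates span an intron.

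The second catalytic residue, a histidine, is shown for the same reason, with its codon in capitals.
Capn6: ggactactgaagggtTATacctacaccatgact
Capn2: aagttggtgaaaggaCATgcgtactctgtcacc
The aligned residue of Capn6 was a tyrosine (H262Y, residue 252 of Capn6, exon 6, chrX:143807963-143807995 on the minus strand), whereas Capn1 and Capn7 had the histidine of Capn2, which lies in exon 6 at chr1:182489977-182490009 on the minus strand. The third catalytic residue, an asparagine, was kept in all 4 (N286N in Capn6, residue 284). Translated from these transcripts, Capn6 had 641 residues and Capn2 had 700, and 33.9% of the aligned residues of the 2 proteins were identical, against 61.4% for Capn1 and Capn2 and 26.6% for Capn6 and Capn7. Capn6 (ENSMUSG00000067276) lies on chrX:143802231-143827414 and Capns1 (ENSMUSG00000001794) on chr7:30186936-30198811, both on the minus strand. Cast (ENSMUSG00000021585) lies on the minus strand of chromosome 13 at 74692368 to 74808810.

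CD45-negative cells, a gate that leaves out most immune cells, were sorted, and full-length libraries were sequenced from each cell. Of 602 cells, 507 were retained (75 to 91 per tumor), and expression was deposited as TPM (transcript abundance per length, with 1 fixed sum for each cell). TPM keeps no read counts, so the read depth is unknown, and cells had a median of 3141 to 3838 genes detected, by tumor. The labelled cell type was checked: all 7 melanocyte markers were detected in every tumor, with a summed level of 14048 to 17188 TPM, and Pmel, Tyrp1, and Dct were above 0 in all 507 cells. Of the other markers, all 4 of keratinocytes were at 0, endothelial markers were in 0 to 1.16% of the cells of a tumor (Cdh5, Kdr, and Tek at 0), fibroblast markers in 0 to 9.30% (Col1a1 and Pdgfra at 0), skeletal muscle markers in 6.82 to 18.6% (Myod1, Myog, and Tnnt3 at 0), and immune markers in 9.88 to 17.0%, with Ptprc, which encodes CD45, in 1 cell.

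Capn6 was above 0 in 33.3% ± 0.533 (SD, n = 2 tumors) of B16 cells, 38% ± 3.87 (SD, n = 2) of B16PD1 cells, and 67.3% ± 0.873 (SD, n = 2) of R499 cells. By tumor the share was 33.0% in B16007, 33.7% in B16008, 40.7% in B16PD1000, 35.2% in B16PD1002, 67.9% in R499015, and 66.7% in R499016. Both R499 tumors lay above the other 4. Capn6 was chosen by these values, so the gap is a description. The 95% Wilson intervals, which cover counting error only, were 57.1 to 77.1% in R499015 and 55.4 to 76.3% in R499016. In B16PD1000, the highest of the others, the interval was 30.9 to 51.3%. The tumors of 1 condition differed by less than their counting intervals.

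The level of Capn6, the mean over the retained cells of log2(TPM + 1), was 1.60 in B16007, 1.44 in B16008, 1.91 in B16PD1000, 1.74 in B16PD1002, 3.66 in R499015, and 3.42 in R499016. Thus the R499 mean of 3.54 ± 0.17 (SD, n = 2) was 2.02 above that of B16 (1.52 ± 0.11) and 1.72 above that of B16PD1 (1.82 ± 0.12) on the log2 scale, and neither difference was tested. The order of the conditions was R499, B16PD1, and B16, and both B16PD1 tumors were above both B16 tumors. The comparison of B16PD1 with B16 did not itself choose the gene, although its tumors are those that R499 was compared with, and the difference did not pass the test (difference 0.30, standard error 0.30, 95% interval -0.34 to 0.94, limma adjusted p = 0.989).

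In cells where Capn6 was detected, its median was also higher in both R499 tumors. That median was 24.7 TPM in B16007, 17.4 TPM in B16008, 23.6 TPM in B16PD1000, 34.8 TPM in B16PD1002, 43.5 TPM in R499015, and 46.0 TPM in R499016. The quartiles of R499015 (22.1 and 69.0 TPM) and R499016 (17.6 and 69.0 TPM) overlapped those of every other tumor. On the linear scale, the mean over all retained cells was 36.6 TPM ± 4.51 (SD, n = 2) in R499, 12.3 ± 3.5 in B16, and 18.3 ± 3.45 in B16PD1, so that R499 was 2.98 times B16 and 2.0 times B16PD1. Cells above 100 TPM were few in every tumor: 2 in B16007, 1 in B16008, 2 in B16PD1000, 7 in B16PD1002, 8 in R499015, and 3 in R499016.

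**Figure D1:**
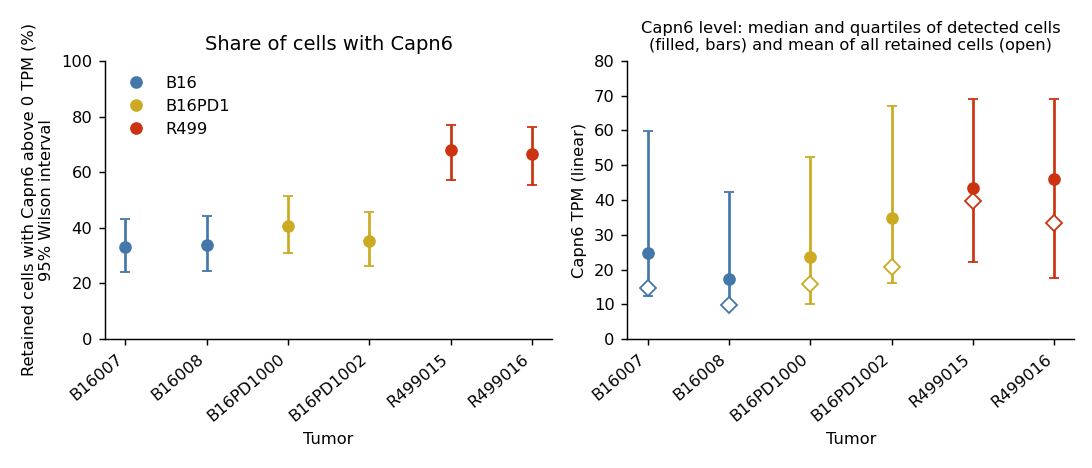
The left panel plots the percentage of retained cells of each tumor with Capn6 above 0 TPM, with 95% Wilson intervals, and the right panel plots the median Capn6 TPM of the cells with a value above 0 (filled points, bars from the lower to the upper quartile) and the mean TPM of all retained cells (open diamonds). The R499 tumors sit at 67.9% and 66.7%, above the other 4 at 33.0 to 40.7%, whereas the quartile bars of all tumors overlap.

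Cells with up to 2500 genes detected had Capn6 less often than cells with more genes in every tumor, so the share was also read within bins of genes detected, which were chosen after seeing the data. Among cells with up to 2500 genes, Capn6 was above 0 in 10.8% of 37 B16 cells, 10.7% of 28 B16PD1 cells, and 35.6% of 45 R499 cells. Among cells with over 2500 and up to 4000 genes, the shares were 29.7% of 74, 40.9% of 66, and 69.8% of 53. Among cells with over 4000 genes, they were 50% of 66, 45.0% of 80, and 89.7% of 58. In each bin both R499 tumors lay above the other 4 tumors, but counting intervals overlapped in every bin. In the first, that of R499016 (27.3%, interval 13.2 to 48.2%) overlapped those of the other 4 tumors. That of R499015 (25.6 to 63.2%) overlapped all of these but B16008. In the second, those of both R499 tumors overlapped that of B16PD1000 (34.1 to 65.9%). There, that of R499016 (45.4 to 82.8%) also overlapped those of B16008 and B16PD1002. In the last, that of R499015 (66.5 to 93.8%) overlapped that of B16008 (39.1 to 73.5%). In R499 cells with none of the markers of another cell type, Capn6 was above 0 in 65.1% in R499015 and 60.7% in R499016, against 30.1 to 43.4% of such cells in the other 4 tumors.

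**Figure D2:**
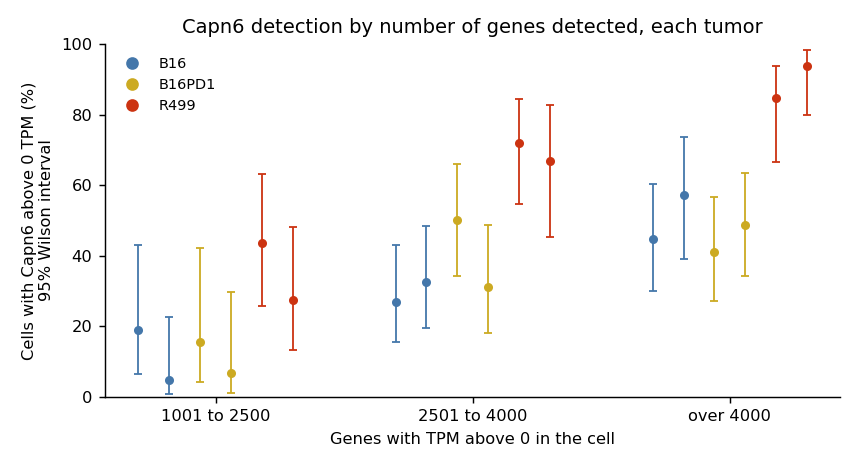
Each point is the percentage of a tumor's cells with Capn6 above 0 TPM, with its 95% Wilson interval, for cells with up to 2500, over 2500 and up to 4000, and over 4000 genes detected on the horizontal axis. The R499 points (43.5 and 27.3%, 71.9 and 66.7%, 84.6 and 93.8%) are the highest of each bin, with overlapping intervals, and the share of every tumor is lowest in the first bin.

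The catalytic subunits of the classical calpains were far less often detected than Capn6 in R499. Capn1, which encodes the large subunit of μ-calpain, was above 0 in 8 of 507 cells (1.58%, 95% Wilson interval 0.802 to 3.08%). Of these cells 1 was in B16007, 1 in B16PD1000, 2 in B16PD1002, 3 in R499015, 1 in R499016, and none in B16008, where 0 of 86 cells allows a share of up to 3.49% (3 cells of the total). At this rate of detection a difference between conditions could not be read, and the limma estimate of R499 minus B16 was 0.04 (95% interval -0.10 to 0.18).

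Capn2, which encodes the large subunit of m-calpain, was above 0 in 29.0% of cells. Its level was 1.47 in B16007, 1.41 in B16008, 1.09 in B16PD1000, 1.33 in B16PD1002, 1.16 in R499015, and 0.94 in R499016. Both R499 tumors were below both B16 tumors, and R499015 lay between the 2 B16PD1 tumors. The share of cells with Capn2 was 32.7% ± 3.49 (SD, n = 2) in B16 and 24.9% ± 3.18 in R499, and the highest single value was 684 TPM in a cell of B16007, whereas no R499 cell exceeded 94.9 TPM. The difference of -0.39 in R499 minus B16 (standard error 0.25, 95% interval -0.93 to 0.15) did not pass (limma adjusted p = 0.614), and that of R499 minus B16PD1 was -0.16 (standard error 0.25, adjusted p = 0.866).

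Capn7 was above 0 in 24.9% of cells. Its level was 0.95 in B16007, 1.46 in B16008, 1.19 in B16PD1000, 1.14 in B16PD1002, 0.51 in R499015, and 1.18 in R499016, so that R499015 was the lowest tumor and R499016 lay among the others. The share of cells with Capn7 was 12.3% in R499015 (10 of 81 cells) and 24.0 to 29.1% in the other 5 tumors. The difference was -0.36 in R499 minus B16 (standard error 0.27, 95% interval -0.93 to 0.22, limma adjusted p = 0.670) and -0.32 in R499 minus B16PD1 (adjusted p = 0.711), and without R499015 these differences were -0.03 and 0.01.

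Capns1 had the highest level among the 6 genes in B16. The small subunit was above 0 in 42.4% of cells, with levels of 3.06 in B16007, 2.07 in B16008, 2.0 in B16PD1000, 3.10 in B16PD1002, 2.31 in R499015, and 2.90 in R499016. The 2 tumors of a condition differed more than the conditions: the mean was 2.61 ± 0.42 (SD, n = 2) in R499, with 2.57 ± 0.70 in B16 and 2.55 ± 0.78 in B16PD1. The difference of R499 minus B16 was 0.04 (standard error 0.41, 95% interval -0.83 to 0.91, limma adjusted p = 0.982), an interval that still holds changes of up to 0.91 on the log2 scale. In cells where it was detected, the median of Capns1 was 48.8 to 83.0 TPM by tumor.

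Cast, the inhibitor, was above 0 in 45.2% of cells, a share that was 39.5 to 50% by tumor. Its level was 2.14 in B16007, 2.04 in B16008, 2.65 in B16PD1000, 2.39 in B16PD1002, 2.37 in R499015, and 2.36 in R499016. Both B16 tumors were below the other 4. The difference was 0.28 in R499 minus B16 (standard error 0.30, 95% interval -0.36 to 0.92, limma adjusted p = 0.773), -0.15 in R499 minus B16PD1 (adjusted p = 0.890), and 0.43 in B16PD1 minus B16 (95% interval -0.21 to 1.07, adjusted p = 0.989). Single cells weighed on the linear mean, since 1 cell of B16PD1002 reached 2565 TPM and 1 of R499016 reached 1639 TPM.

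**Figure D3:**
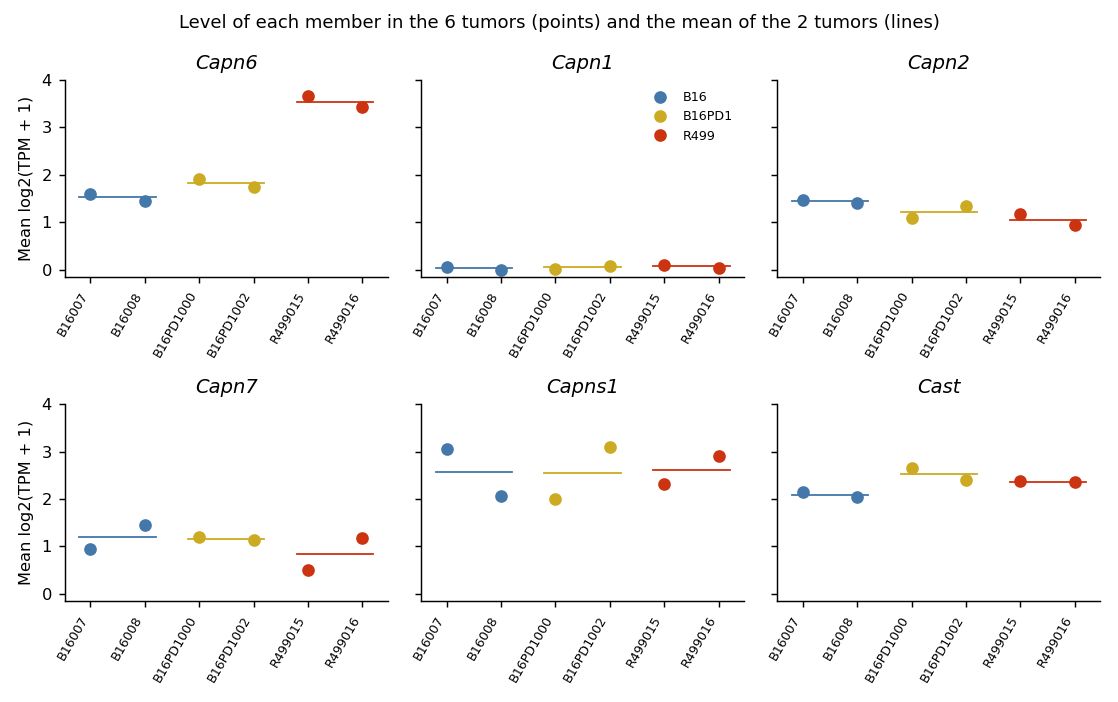
Each panel plots the mean log2(TPM + 1) of 1 gene over the retained cells of each of the 6 tumors (points, on a shared vertical axis) and the mean of the 2 tumors of a condition (lines). Capn6 is at 3.66 and 3.42 in R499 against 1.44 to 1.91 elsewhere, whereas the R499 points of Capn2 (1.16 and 0.94), Capn7 (0.51 and 1.18), Capns1 (2.31 and 2.90), and Cast (2.37 and 2.36) are no higher than the highest of the other tumors. Capn1, detected in 8 cells, is at 0.10 in R499015 and 0 to 0.08 in the other 5 tumors.

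Of the 5 members other than Capn6, the comparisons of R499 with B16 and with B16PD1 called 0 and 0 at an adjusted p of 0.05, by limma with Benjamini-Hochberg adjustment over all 11264 genes tested. Of all genes tested, 0.0621% passed in the first comparison and 0.0710% in the second, so that 0 of 5 members is near the background. At an unadjusted p under 0.05 the count was also 0 in both, beside 10.5 and 10.2% of all genes tested. Limma without a trend called 0 of the 5 and 0 of all genes in both, with 1 member, Capn2 against B16, at an unadjusted p under 0.05. Capn2 was also at such a p against B16 as the log2 of mean TPM, and Capn7 was without R499016. The upper ends of the 95% intervals of R499 minus B16 lay between 0.15 and 0.92 for the 5 genes, and the median difference of the 5 was 0.04, beside -0.073 over all genes tested. The 2 comparisons share the R499 tumors, and with 2 tumors in each condition an exact permutation test of a single gene cannot go below p = 0.333 (two-sided).

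In B16PD1 minus B16, 0 of the 6 members passed, with 0% of all genes tested past the threshold. By limma, 0 members were at an unadjusted p under 0.05, beside 4.69% of all genes tested. Without a trend, 1 member, Cast, was at such a p, and 0 passed after adjustment. The differences ran from -0.23 for Capn2 to 0.43 for Cast. This comparison shares its B16 and B16PD1 tumors with the other 2. The labels call the 2 tumors of a condition separate samples, and the p-values rest on the spread between such tumors. Limma moves the spread of each gene toward a trend over all genes tested. The standard errors, intervals, and p-values are therefore not based on the gene's own spread alone.

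**Figure D4:**
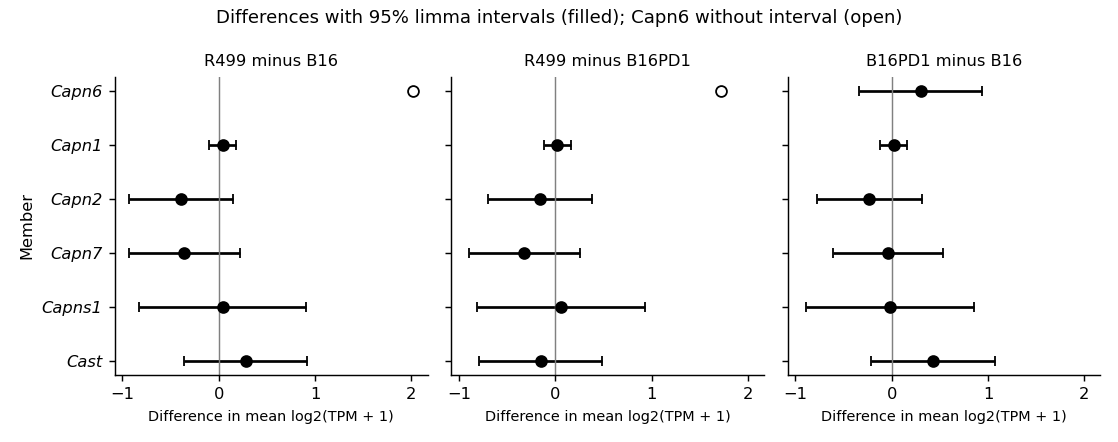
The differences in mean log2(TPM + 1) of the 6 genes are plotted for the 3 comparisons, with 95% limma intervals as bars, and Capn6 in the R499 comparisons is an open point without an interval because it was chosen by them. The open points lie at 2.02 and 1.72, whereas every interval drawn holds 0.

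The order of the 6 genes by level thus differed between the conditions. In B16 it was Capns1 (2.57), Cast (2.09), Capn6 (1.52), Capn2 (1.44), Capn7 (1.21), and Capn1 (0.03), on the log2(TPM + 1) scale, which is per transcript length. In R499 it was Capn6 (3.54), Capns1 (2.61), Cast (2.36), Capn2 (1.05), Capn7 (0.85), and Capn1 (0.07). Neighbours in the order, such as Capn6 and Capn2 in B16 or Capns1 and Cast in R499, differed by less than the spread of 1 of the 2 genes between tumors (SD 0.11 for Capn6 in B16 and 0.42 for Capns1 in R499). As linear means over cells, Capns1 (47.0 TPM ± 4.36) and Cast (36.8 TPM ± 14.6) were not below Capn6 (36.6 TPM) in R499. Capns1 had 13 cells above 100 TPM in each R499 tumor, and Cast had the cell of 1639 TPM named above. Capn2 was at 6.03 TPM ± 0.866 in R499 against 14.5 ± 1.08 in B16. The B16 means were 15.3 TPM in B16007, which includes the cell of 684 TPM named above, and 13.8 TPM in B16008.

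The other calpain genes were rare in these cells. Capn8, Capn11, Capn13, and Capns2 were at 0 in all 507 cells, which allows a share of up to 0.592% (3 cells of the total; the upper end of the Wilson interval is 0.752%). Capn3, known for its role in skeletal muscle, was above 0 in 1 cell of R499015, and Capn9 in 2 cells, 1 in each B16PD1 tumor. Capn10 (32 cells), Capn12 (25 cells), Capn15 (23 cells), and Capn5 (14 cells) could be tested. Of these 4, 0 passed in any of the 3 comparisons by limma (0 at an unadjusted p under 0.05). Of all genes tested, 0.0621% passed in R499 minus B16, 0.0710% in R499 minus B16PD1, and 0% in B16PD1 minus B16. At such an unadjusted p were 10.5, 10.2, and 4.69% of all genes tested, so that 0 of 4 is near the background. The differences of the 4 in R499 minus B16 were between -0.05 (Capn5) and 0.16 (Capn12). Capn12 was at 0.16 in B16007, 0.13 in B16008, 0.21 in R499015, and 0.40 in R499016. Hence none of these 4 genes showed a difference near that of Capn6 on the log2(TPM + 1) scale. As linear means over cells, Capn12 was at 2.41 TPM in R499, 0.774 in B16, and 0.856 in B16PD1, on its 25 cells.

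Cells with Capn6 were compared with cells without it inside each R499 tumor, to see whether the other members were found in the same cells. In R499015, Capns1 was above 0 in 45.5% of the 55 cells with Capn6 and 23.1% of the 26 cells without. In R499016, the shares were 56.0% of 50 and 32.0% of 25. Cast was above 0 in 52.7 against 26.9% in R499015 and 50% against 32.0% in R499016. Capn2 was above 0 in 30.9 against 19.2% and 30.0 against 8.00%, and Capn7 in 14.5 against 7.69% and 30.0 against 12%. Each member was therefore more often found beside Capn6 in both tumors, but the Wilson intervals of every pair overlapped, and cells of 1 tumor are not replicates.

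The cells with Capn6 also had more genes detected. The median was 3526 genes in cells with Capn6 and 2463 in cells without in R499015, and 4172 and 2374 in R499016. Within R499 cells of over 2500 and up to 4000 genes, Capns1 was above 0 in 40.5% of 37 cells with Capn6 and 37.5% of 16 without, and Cast in 51.4 and 50%, whereas Capn2 was at 27.0 and 18.8% and Capn7 at 21.6 and 12.5%. Within cells of up to 2500 genes (16 with Capn6 and 29 without), Capns1 was at 25% with Capn6 and 13.8% without, and Cast at 12.5 and 20.7%. Within cells of over 4000 genes (52 with and 6 without), Capns1 was at 65.4 and 66.7% and Cast at 63.5 and 16.7%. In the same cells of over 4000 genes, Capn2 was at 36.5 and 50% and Capn7 at 23.1 and 50%. In cells of up to 2500 genes, Capn2 was at 18.8 and 3.45% and Capn7 at 18.8 and 0%. The differences of Capns1, Cast, Capn2, and Capn7 thus varied between the bins, and each changed its direction, on few cells without Capn6. Outside R499, Capns1 was above 0 in 47.5% of B16 cells with Capn6 and 39.0% of those without, and in B16PD1 the direction differed between the tumors (40% against 31.4% in B16PD1000 and 45.2 against 52.6% in B16PD1002).

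**Figure D5:**
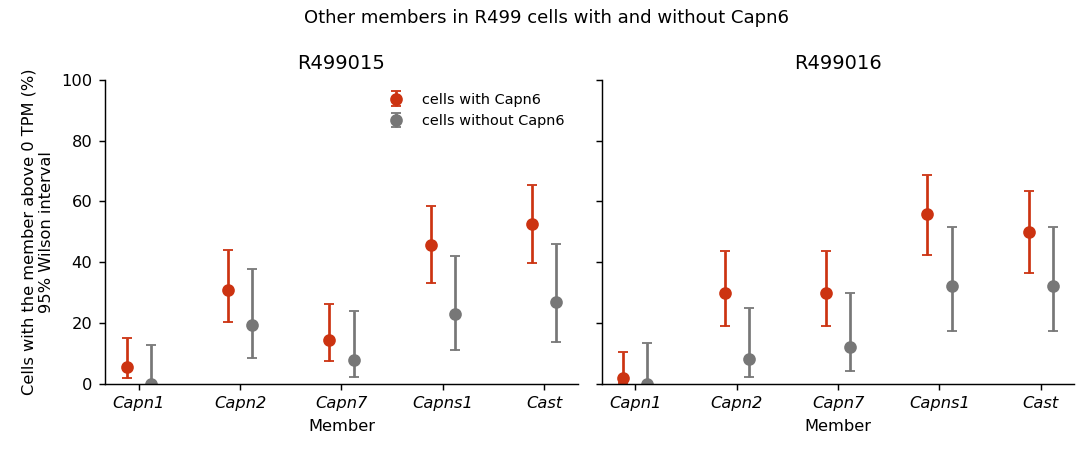
The percentage of cells with each of the other 5 members above 0 TPM is plotted for cells with Capn6 (red) and without Capn6 (grey) in the 2 R499 tumors, with 95% Wilson intervals. All red points lie above the grey ones (Capns1 45.5 and 23.1% in R499015, 56.0 and 32.0% in R499016), and the cells with Capn6 had medians of 3526 and 4172 genes detected against 2463 and 2374.

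The subunits of the classical calpains were next compared, since Capn1 or Capn2 needs Capns1. Of 151 cells with Capn1 or Capn2, 82 (54.3%) also had Capns1, against 37.4% of the other cells. The share was 47.5% in B16 (28 of 59 cells), 55.8% in B16PD1 (29 of 52), and 62.5% in R499 (25 of 40). In the other cells it was 39.0, 36.9, and 36.2%. These shares pool the cells of both tumors of a condition, and their differences were not tested. Cells with either large subunit had more genes detected (median 4383 against 3232), and this was not held fixed. Capn6 and Cast were both above 0 in 118 cells, which is 51.3% of the cells with Capn6 and 51.5% of those with Cast. Over all 507 cells, Cast was above 0 in 45.2% and Capn6 in 45.4%, and the genes detected were not held fixed here either. None of the other 5 members was detected in 23.2% of B16 cells, 21.8% of B16PD1 cells, and 26.3% of R499 cells.

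Substrates of calpains in adhesions and the membrane skeleton were read next. All 16 listed genes were tested, and 0 passed in any of the 3 comparisons by limma. By the same fit, 1 gene (Actn1, in R499 against B16) was at an unadjusted p under 0.05. Of all genes tested, 0.0710% passed in R499 minus B16PD1 and 0% in B16PD1 minus B16. In R499 minus B16, 0.0621% passed and 10.5% were at such an unadjusted p. There, 13 of the 16 were lower and 3 higher, with a median difference of -0.20 beside -0.073 over all genes tested. In R499 minus B16PD1, 10 were lower and 6 higher, with a median of -0.04 beside -0.089. In B16PD1 minus B16, 12 were lower and 4 higher, with a median of -0.16 beside 0.012, so lower values than in B16 were not particular to R499. The 3 most abundant were Vim, the intermediate filament vimentin (difference 0.10 in R499 minus B16, limma adjusted p = 0.929), Ctnnb1, the adherens junction protein beta-catenin (-0.62, adjusted p = 0.502), and Itgb1, the integrin beta 1 subunit (-0.61, adjusted p = 0.586). Ctnnb1 was at 7.84 in B16007, 7.78 in B16008, 7.61 in B16PD1000, 8.01 in B16PD1002, 6.84 in R499015, and 7.53 in R499016, so both R499 tumors were the lowest.

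Of 15 listed genes of microtubules and Rac signalling, the processes in which Capn6 is known to act, 13 were tested and 0 passed by limma in any comparison. Of all genes tested, 0.0621% passed in R499 minus B16, 0.0710% in R499 minus B16PD1, and 0% in B16PD1 minus B16. The 3 most abundant of the list were the tubulins Tuba1b, Tuba1a, and Tuba1c, whose differences in R499 minus B16 were -0.08, 0.04, and -0.24. The median over the 13 was -0.08 beside -0.073 over all genes tested, and -0.10 beside -0.089 in R499 minus B16PD1. Arhgef2, singled out after its values were seen, encodes GEF-H1, the partner of Capn6 named above. It was at 4.13 in B16007, 2.98 in B16008, 3.80 in B16PD1000, 4.12 in B16PD1002, 2.25 in R499015, and 2.76 in R499016, so both R499 tumors were below the other 4. Its difference was -1.05 in R499 minus B16 (standard error 0.39, unadjusted p = 0.0156, limma adjusted p = 0.380) and -1.45 in R499 minus B16PD1 (unadjusted p = 0.00175, adjusted p = 0.275), and it was the 1 gene of the list at an unadjusted p under 0.05 in each. As given above, 10.5 and 10.2% of all genes tested were at such a p in these comparisons.

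The genes around Capn6 on the X chromosome were mostly at 0. Of 24 genes whose annotated start lies within 1 Mb of that of Capn6, 11 had a row in the data and 8 of these were at 0 in all retained cells, among them Dcx, the microtubule protein doublecortin, whose start is 106 kb away. The 3 tested were Ammecr1, Pak3, and Alg13. Pak3, a kinase downstream of Rac, was above 0 in 22 cells (difference 0.05 in R499 minus B16, limma adjusted p = 0.894). Alg13, of N-glycan synthesis, was above 0 in 64 cells, with levels of 0.34 to 1.01 in the tumors of B16 and B16PD1 and of 0.30 in R499015 and 0.66 in R499016. Of the 3 genes, 0 passed in any comparison by limma, and none had the R499 tumors highest. At an unadjusted p under 0.05 there were 0 in the R499 comparisons and 1, Alg13, in B16PD1 minus B16. Of all genes tested, 10.5, 10.2, and 4.69% were at such a p in R499 minus B16, R499 minus B16PD1, and B16PD1 minus B16.

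The genes most like Capn6 in their tumor means were Cops9, of the COP9 signalosome (Pearson r = 0.995), Ankrd24 (0.991), Pqlc3 (0.974), Echdc1 (0.974), and Selenop, the plasma selenium carrier (0.973), out of 8138 genes detected in over 10% of cells. Each r is over 6 tumor means that fall into 2 R499 tumors and 4 others, so it follows mainly the gap between them. Cops9 was at 8.02, 7.95, 8.24, 7.99, 9.11, and 9.03 in B16007, B16008, B16PD1000, B16PD1002, R499015, and R499016. The r of the members was 0.302 for Cast, 0.014 for Capns1, -0.625 for Capn7, and -0.744 for Capn2, beside a median of -0.324 over the 8138 genes.

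Over the 156 retained R499 cells, Rex1bd (r = 0.436), Ndufa3 (0.410), Zfp422 (0.410), Mrpl30 (0.409), and Cstb (0.391) were most like Capn6. The number of genes detected in a cell had an r of 0.397 with Capn6 over the same cells, near those of the leading genes, and with it held fixed the highest r was 0.289 (Zfp422 and Mrpl30). The members were at 0.187 (Capn2), 0.120 (Capns1), 0.097 (Cast), and 0.095 (Capn7), beside a median of 0.103 over all genes compared. With the genes detected held fixed they were at 0.113 (Capn2), 0.039 (Capn7), -0.002 (Cast), and -0.005 (Capns1), beside a median of 0.0029. In R499 cells, Capn6 was above 0 in 73.7% of cells with Kalrn, 78.2% with Cav1, 75.9% with Fscn1, and 81.6% with Cd274, against 61.2, 47.3, 62.7, and 62.7% of cells without them. The cells with each of these 4 genes also had more genes detected, with medians of 3941 to 4208 against 2589 to 3010.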

How the data were processed

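Single cells of 6 melanomas in 3 conditions were analysed. Reads were aligned by the authors (STAR, 2-pass, defaults), who ran RSEM on the alignments and deposited its TPM for 602 cells and 25215 genes. The submitters' processing notes name the build mm10, and versions and annotation are not given in the sources used here. RSEM shares ambiguous reads between similar transcripts. Cells were assigned to tumors by the prefix of their names.

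Cells in which over 1000 genes were detected and mitochondrial genes took under 10% of TPM were kept, as were genes detected in more than 5 such cells (507 cells, 11264 genes). The study's minimum of mapped reads could not be applied to TPM, and doublets were not called. Tumor means of log2(TPM + 1) were compared over all 6 tumors with limma 3.58.1 (trend, two-sided, Benjamini-Hochberg over all genes tested) in R 4.3.3. Sequences and positions came from GENCODE M21 on GRCm38 (Biopython 1.88). Other steps used Python 3.11.15 with pandas 2.3.3 and numpy 2.4.6. The fit was tested on simulated data with normal noise. Only genes of higher mean level were changed there, so the simulation does not cover genes as rare as Capn1. The members and lists were chosen with earlier results of these data known.

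Named are the 6 members, the other calpain genes, the 3 most abundant genes of the 2 lists with any past the threshold, genes starting within 1 Mb of Capn6, the 5 genes most like Capn6 over tumors and over R499 cells, and Kalrn, Cav1, Fscn1, and Cd274. Alternatives were other pseudocounts, filters, and scalings, limma without a trend, the genes detected as a covariate, and leaving out each tumor.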

Additional observations from a re-analysis of the deposited data

How the results depend on the processing

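Of the 5 other members, 0 were called in the R499 comparisons under each of the 17 alternatives (4 members tested where genes in more than 50 cells were required), and 0 of the members in B16PD1 minus B16; the lowest adjusted p over all of them was 0.407. Of all genes, 0 to 28 passed in R499 minus B16 and 0 to 22 in R499 minus B16PD1. It was 0 in both as the log2 of mean TPM, with no filter on genes, with the genes detected as a covariate, and without a trend, and 0 in R499 minus B16 without B16008, so that no member could be called there. The difference of Capn6 in R499 minus B16, 2.02, was 3.14 and 0.96 with pseudocounts of 0.1 and 10, 1.52 as the log2 of mean TPM, 1.66 with no filter on cells, and 2.37 in cells with more than 2000 genes. In R499 minus B16PD1, it was 2.69, 0.80, 0.97, 1.55, and 2.03 under the same settings. Leaving out each tumor gave 1.90 to 2.14 and 1.60 to 1.83. The share of cells with Capn6 above 10 TPM was 25.4% in B16, 28.8% in B16PD1, and 61.4% in R499. Counted above 0 TPM, the shares of 33.3% in B16 and 67.3% in R499 were 34.8 and 62.7% with no filter on cells, 35.7 and 76.6% in cells with more than 2000 genes, and 32.2 and 64.0% with a mitochondrial limit of 5%.

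Uncalled differences also moved without turning. With the genes detected as a covariate, Capns1 went from 0.04 to 0.82 in R499 minus B16 and from 0.06 to 1.30 in R499 minus B16PD1 (adjusted p = 0.818 and 0.906 by limma), where Capn6 was at 2.07 and 1.79. As the log2 of mean TPM, Capn2 went from -0.39 to -1.15 and Cast from 0.28 to 0.69 in R499 minus B16. These means include the B16007 cell of 684 TPM for Capn2 and the R499016 cell of 1639 TPM for Cast. The direction of some uncalled differences turned under other settings, and the cause was not tested. Among those that turned were Capn7, at -0.32, and Cast, at -0.15, in R499 minus B16PD1 with the settings used above. As the log2 of mean TPM, Capn1 was at -0.06 in R499 minus B16 and -0.15 in B16PD1 minus B16, and Capn7 and Capns1 at 0.27 and 0.10 in B16PD1 minus B16. With no filter on cells, Capns1 was at -0.01 in R499 minus B16 and -0.04 in R499 minus B16PD1, Capn1 at -0.01 in R499 minus B16PD1, and Capn7 and Capns1 at 0.08 and 0.03 in B16PD1 minus B16. Cast was at 0.01 in R499 minus B16PD1 in cells with more than 2000 genes. In B16PD1 minus B16, Capn1 was at -1.4e-03 with a pseudocount of 10 and -0.01 with cells centred, Capn7 at 2.2e-03 with a pseudocount of 0.1 and 0.04 with the genes detected as a covariate, and Capns1 at 0.01 with a pseudocount of 0.1 and with a mitochondrial limit of 5%. Leaving out each tumor, Capns1 ran from -0.45 to 0.53, from -0.49 to 0.61, and from -0.57 to 0.53 in R499 minus B16, R499 minus B16PD1, and B16PD1 minus B16, Capn1 from -0.01 to 0.05 in the last 2, and Capn7 from -0.65 to 0.01 and from -0.29 to 0.21 in the last 2. No paired analysis was possible by replicate because the tumor numbers in cell names could not be tied to the replicate numbers of the labels. The tumors of different conditions came from separate mice, and no pairing between them is given in the sources used here. The depth in reads is unknown, so a TPM of 0 does not show that a gene was silent in a cell.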

Other observations

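Capn6 was also counted in the 95 cells left out by the limits on genes detected and mitochondrial TPM. It was above 0 in 46.7% of 45 left-out R499 cells (95% Wilson interval 32.9 to 60.9%), 45.8% of 24 left-out B16 cells (27.9 to 64.9%), and 23.1% of 26 left-out B16PD1 cells (11.0 to 42.1%). These intervals pool the cells of both tumors of a condition and cover counting error only. The retained shares were 67.3% in R499, 33.3% in B16, and 38% in B16PD1. The intervals of the left-out cells were 18.1 to 56.7% in R499015 and 37.1 to 73.3% in R499016, and the latter held the retained R499 share. By tumor the share was 35.0% in R499015, 56.0% in R499016, 30.0% in B16007, 57.1% in B16008, 21.4% in B16PD1000, and 25% in B16PD1002, so that among these cells the R499 tumors did not stand above B16. Cast was above 0 in 42.2% of the left-out R499 cells and 25% of the left-out B16 cells, and Capns1 in 42.2 and 33.3%. The comparison of left-out cells was added after seeing the data and was not tested.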
